A study of Homo sapiens with 20 samples.

Results

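The ABC (ATP-binding cassette) transporter genes were taken as every gene of the count table whose symbol is ABC, a subfamily letter from A to G and a number. They came to 25 of the 12558 genes, and 22 of them carried enough counts to be tested. RNA was measured in HEC-1A, a human endometrial adenocarcinoma cell line, as 3′ gene counts from a bulk version of MARS-seq, with 15000 sorted cells per library. All 4 populations carried a stable short hairpin RNA and were then sorted on the surface marker CD133. CD133- Control (5 libraries) and CD133+ Control (4 libraries) expressed a control hairpin. The labels name it shNT, and the study's methods describe it as directed against GFP. CD133- EIF4G2KD (5 libraries) and CD133+ EIF4G2KD (5 libraries) expressed a hairpin against EIF4G2 (DAP5), a translation initiation factor. The study sorted these cells to ask how control and knock-down cells that differ in CD133 differ in their transcripts, after comparing their response to therapies, and everything below comes from this 1 cell line. The libraries are numbered 1 to 5 in the labels, and the design text describes independent experiments. The third CD133+ Control sample is labelled as failing the quality check and was not analysed.

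ABC transporters bind and hydrolyse ATP to move a substrate across a membrane. Subfamilies B, C and G hold pumps that export drugs and their conjugates, such as P-glycoprotein, the MRP proteins and BCRP, for which the family is best known in tumour cells. Subfamily A members mostly move lipids, several subfamily B members work in mitochondria or handle porphyrins, subfamily D members import fatty acids into peroxisomes or handle vitamin B12, and the E and F proteins have ATP-binding domains without membrane spans and act on ribosomes. In the results below the drug pumps are set apart from the lipid transporters and from the heme and mitochondrial transporters.

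The results turn on ABCA3, ABCA4, ABCB6 and ABCA7. Promoter sequences were matched by symbol to RefSeq (GRCh38.p14) for 19 of the 25 genes, and the 300 bases around the start of ABCA3, ABCA7 and ABCB6 are shown here because each was called in at least 1 comparison. Capitals mark matches, on either strand, to 4 motifs. One is the GC box, GGGCGG. Another is the CCAAT box. A further motif is the E-box CACGTG, and the last is GCGCANGCG, the core bound by NRF1. TATAAA was searched as well and is in none of the 3.
ABCA3, chr16:2340679-2340978, minus strand: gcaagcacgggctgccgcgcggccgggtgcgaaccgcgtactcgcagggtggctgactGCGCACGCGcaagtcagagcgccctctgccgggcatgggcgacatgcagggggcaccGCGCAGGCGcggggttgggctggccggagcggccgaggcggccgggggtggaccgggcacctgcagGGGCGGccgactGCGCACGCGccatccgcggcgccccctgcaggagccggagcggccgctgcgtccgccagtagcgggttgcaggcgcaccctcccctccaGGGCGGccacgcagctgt
ABCA7, chr19:1039857-1040156, plus strand: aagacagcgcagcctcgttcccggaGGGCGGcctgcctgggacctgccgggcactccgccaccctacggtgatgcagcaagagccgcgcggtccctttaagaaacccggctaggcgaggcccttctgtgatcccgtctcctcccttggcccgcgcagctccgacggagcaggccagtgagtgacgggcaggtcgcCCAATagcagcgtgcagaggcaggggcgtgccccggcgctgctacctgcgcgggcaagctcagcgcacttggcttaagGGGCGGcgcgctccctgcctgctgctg
ABCB6, chr2:219218909-219219208, minus strand: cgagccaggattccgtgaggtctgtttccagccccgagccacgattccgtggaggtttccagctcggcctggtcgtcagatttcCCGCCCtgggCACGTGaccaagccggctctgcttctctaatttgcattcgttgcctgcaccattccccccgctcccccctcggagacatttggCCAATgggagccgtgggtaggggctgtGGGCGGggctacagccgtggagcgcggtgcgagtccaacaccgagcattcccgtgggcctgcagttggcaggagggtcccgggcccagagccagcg
The ABCA3 window held 3 matches to the NRF1 core, a motif present in 8.05% of the 27305 promoters of this length and in 5 of the 19 ABC promoters. The ABCB6 window held 1 match to CACGTG, which is in 7.43% of promoters, and which among the ABC promoters was found again only in ABCF1. GGGCGG was in each of the 3 windows, in 13 of the 19 ABC promoters and in 44.6% of promoters, and CCAAT was in ABCA7 and ABCB6, in 4 ABC promoters and in 35.7% of promoters. TATAAA was in 12% of promoters and, among the ABC genes, in ABCC5 alone. These matches are descriptions of letters and not of bound sites.

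Library totals ran from 1679447 to 5234905 counts, and the ABC genes together took 0.0688% to 0.0977% of them. The epithelial markers EPCAM, KRT8, KRT18, KRT19 and CDH1 were counted in every library, and the 11 stromal, endothelial and leukocyte markers listed were not analysed here. PROM1, which encodes CD133, followed the sort: it lay at 0.428 to 3.31 CPM (counts scaled to a common effective library size) in the CD133- libraries and at 11.6 to 26.4 CPM in the CD133+ libraries. The CD133- Control libraries held EIF4G2 at 360, 193, 323, 245 and 333 CPM, and the CD133- EIF4G2KD libraries held it at 163, 102, 164, 51.1 and 36.8 CPM, without overlap. In CD133+ Control it was at 377, 360, 275 and 335 CPM, and in CD133+ EIF4G2KD at 350, 270, 130, 231 and 253 CPM, so those populations overlapped. The fitted log2 fold change of EIF4G2 was -1.48 (SE 0.33, edgeR adjusted p = 0.12) in CD133- and -0.45 (SE 0.34, adjusted p = 0.52) in CD133+ cells, so the transcript measured in CD133+ EIF4G2KD was not called as lower than in its control. The libraries that stood apart came to 4 on the first principal component of all tested genes, which held 25% of the variance: CD133- EIF4G2KD 5, 4 and 2, with scores of 72.7, 49.0 and 20.0, and CD133+ EIF4G2KD 3, with 25.6, against at most 1.41 in the other libraries. These 4 libraries also held the least EIF4G2, at 36.8, 51.1, 102 and 130 CPM, against 163 CPM or more in every other library. Leaving all 4 out therefore removes the libraries with the lowest EIF4G2 and keeps only libraries 1 and 3 of CD133- EIF4G2KD. Results that rest on these 4 libraries are given with and without them.

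The family was uneven in level. ABCC3 alone took 31.1% of the 45986 ABC counts, ABCA7 took 15.8%, ABCF3 8.26% and ABCA2 7.86%. Counts of 3′ ends do not grow with transcript length, so these shares compare tags per gene. Among the members that were not tested, ABCA13 and ABCG1, the latter a cholesterol exporter, had only 59 and 46 counts over the 19 libraries. ABCB1 (P-glycoprotein) and ABCG2 (BCRP) were not analysed here. Levels per cell were not measured, so in these bulk libraries fewer cells that express a gene and less of its RNA per cell cannot be told apart.

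A gene was called on 3 conditions: an adjusted p below 0.05 from edgeR's quasi-likelihood test over the 10338 genes tested, a log2 fold change beyond 0.58 either way, and an average of the authors' normalized counts of more than 10. Among the tested ABC genes that did not pass this last limit were ABCA12, ABCC6 and ABCF2. In CD133+ cells the knock-down of EIF4G2 came with a higher ABCA3 and a lower ABCA4 and ABCB6, so that 3 of 22 ABC genes were called (13.6%), 1 higher and 2 lower. Over all genes tested 5.99% were called, 2.59% higher and 3.40% lower. No ABC gene was called in CD133- cells, where the share over all genes was 0.00967%, although 2 of the 22 had an unadjusted p below 0.05, beside 10.6% of all genes, and DESeq2 called 1.

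**Figure D1:**
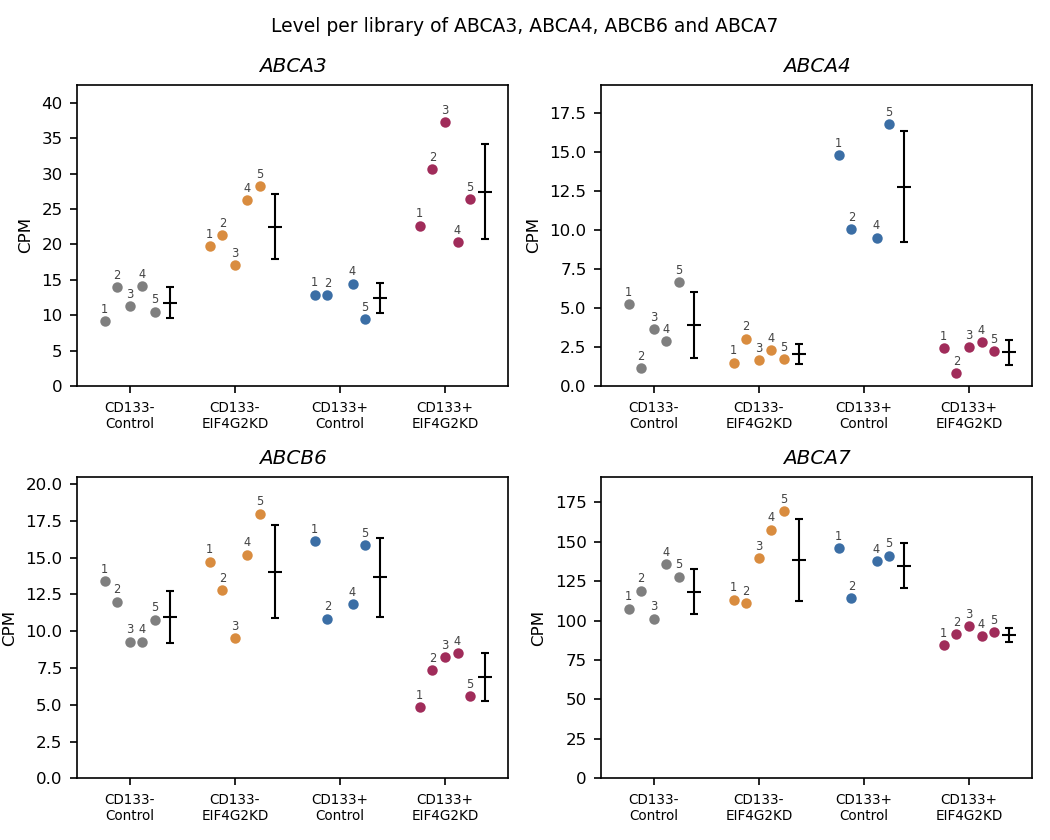
Level of ABCA3, ABCA4, ABCB6 and ABCA7 in CPM (y axis, from 0) in each library of the 4 populations (x axis). Points are libraries with their number, and the bar beside them is the mean with 1 SD (n = 4 for CD133+ Control and 5 for the others). ABCA3 is higher in both knock-down populations, ABCA4 is high in CD133+ Control alone, and ABCB6 and ABCA7 are lowest in CD133+ EIF4G2KD.

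Among the lipid transporters, ABCA3, which loads phospholipid into the lamellar bodies of lung alveolar cells, was the member called as higher. It was at 12.9, 12.8, 14.5 and 9.50 CPM in the CD133+ Control libraries and at 22.7, 30.6, 37.3, 20.3 and 26.4 CPM in CD133+ EIF4G2KD. Every knock-down library lay above every control library. The means were 12.4 ± 2.09 CPM (SD, n = 4) and 27.5 ± 6.74 CPM (SD, n = 5), and the log2 fold change was 1.15 (SE 0.21, edgeR adjusted p = 0.0015), a 2.22-fold difference. ABCA3 was called under each of the 29 alternative settings, and leaving out any 1 library kept the log2 fold change between 1.02 and 1.24. Some of these settings reuse the main fit or leave out only CD133- libraries, so they are weak checks. In CD133- cells the levels were 9.19, 13.9, 11.3, 14.1 and 10.5 CPM in the control and 19.8, 21.3, 17.1, 26.3 and 28.2 CPM in the knock-down. Here too the populations did not overlap, as held for 1.45% of all genes tested in that comparison, and the highest values were in libraries 4 and 5, which stand apart. The log2 fold change was 0.93 (SE 0.20), but the edgeR adjusted p of 0.12 did not pass. DESeq2 called it (adjusted p = 0.012), as did edgeR once CD133- Control 2 was left out (adjusted p = 0.035), while without CD133- EIF4G2KD 4 and 5 it was 0.72 (adjusted p = 0.64). The knock-down effects in the 2 sorted populations differed by 0.22 on the log2 scale (SE 0.29, edgeR adjusted p = 0.85). ABCA3 lies on chromosome 16 (2275881 to 2340746, minus strand, hg38, GENCODE 44) and overlaps the pseudogene ABCA17P on the other strand.

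ABCA4, the flippase that clears retinoid conjugates from photoreceptor discs, lies on chromosome 1 (93992834 to 94121148, minus strand) and showed the widest fold range between population means of the family, 6.26-fold. It was at 14.8, 10.1, 9.53 and 16.8 CPM in the CD133+ Control libraries and at 2.43, 0.817, 2.51, 2.84 and 2.22 CPM in CD133+ EIF4G2KD. The lowest control library lay above every knock-down library, and the 5 knock-down libraries held 2 to 9 counts each. The log2 fold change was -2.55 (SE 0.36, edgeR adjusted p = 0.00014), which left 0.171 of the control level. Its only lost call among 29 settings came from asking for a mean normalized count above 30, since its mean is 14.5. The CD133- libraries were all low, at 5.25, 1.16, 3.65, 2.88 and 6.67 CPM in the control and 1.49, 3.05, 1.68, 2.30 and 1.71 CPM in the knock-down. These overlapped, with a log2 fold change of -1.06 (SE 0.39, edgeR adjusted p = 0.38).

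ABCA4 was also the 1 ABC gene of 22 (4.5%) called between the sorted controls, where it was lower in CD133- Control than in CD133+ Control. The share called over all genes in that comparison was 0.232%, and 0.0484% were lower. The log2 fold change was -1.67 (SE 0.33, edgeR adjusted p = 0.026), and the populations did not overlap, as held for 2.44% of genes. This call was lost when the fit held only the 2 control populations (adjusted p = 0.10), and without CD133- Control 2, 3 or 4 or CD133+ Control 1 or 5, one at a time, with adjusted p from 0.050 to 0.18. The log2 fold change stayed between -1.94 and -1.46 when any 1 library was left out. Between the knock-down populations ABCA4 was low in both, at a log2 fold change of -0.18 (SE 0.43, adjusted p = 0.87). The difference between its knock-down effects in CD133+ and CD133- cells was -1.49 (SE 0.55, edgeR adjusted p = 0.20), which did not pass.

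ABCA7, a phospholipid transporter known as a risk gene for Alzheimer's disease, was the most highly counted lipid transporter and lies on chromosome 19 (1039997 to 1065572, plus strand). It was at 146, 114, 138 and 141 CPM in the CD133+ Control libraries and at 84.2, 91.5, 96.5, 89.9 and 92.6 CPM in CD133+ EIF4G2KD. The populations did not overlap, and the knock-down libraries spanned only 84.2 to 96.5 CPM. The log2 fold change of -0.57 (SE 0.14, edgeR adjusted p = 0.012) fell just short of the fold limit, so the gene was not called in this comparison. In CD133- cells it was at 107, 119, 101, 136 and 128 CPM in the control and at 113, 111, 140, 158 and 169 CPM in the knock-down, which overlapped (log2 fold change 0.22, SE 0.13, adjusted p = 0.53). With ABCA3, ABCA4 and ABCB6 it made 4 ABC genes of 22 (18.2%) without overlap between the CD133+ populations, against 10.1% of all genes tested.

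The other tested lipid transporters were not called. ABCA2, which acts in late endosomes and lysosomes, averaged 46.5 to 78.0 CPM by population, with a log2 fold change of -0.28 in CD133+ and 0.33 in CD133- cells (adjusted p = 0.63 and 0.62). ABCA12, which moves glucosylceramide into the lamellar granules of keratinocytes, averaged 2.4 to 2.83 CPM, and the lowest edgeR adjusted p of its comparisons was 0.946. Over the 5 tested lipid transporters the median log2 fold change in CD133+ cells was -0.28, beside 0.01 over all genes, and 1 of the 5 was positive.

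Of the heme and mitochondrial transporters, ABCB6 was called. This protein was described as a porphyrin transporter of mitochondria and is also found in other membranes, where it carries a blood group antigen. The gene lies on chromosome 2 (219209772 to 219218994, minus strand) and overlaps an unnamed gene on the same strand. It was at 16.1, 10.9, 11.8 and 15.8 CPM in the CD133+ Control libraries and at 4.86, 7.35, 8.25, 8.52 and 5.56 CPM in CD133+ EIF4G2KD. Every knock-down library lay below every control library, and the log2 fold change was -1.02 (SE 0.23, edgeR adjusted p = 0.0070), or 0.495 of the control level. This call held under all 29 alternative settings, some of which, as for ABCA3, reuse the main fit or leave out only CD133- libraries. In CD133- cells ABCB6 was at 13.4, 12, 9.28, 9.28 and 10.8 CPM in the control and at 14.7, 12.8, 9.51, 15.2 and 18 CPM in the knock-down, which overlapped (log2 fold change 0.35, SE 0.21, adjusted p = 0.54).

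The remaining mitochondrial members were not called. ABCB8, in the inner mitochondrial membrane, averaged 3.28 to 4.78 CPM. ABCB10, an inner membrane protein that assists heme synthesis in red cell precursors, was at 8.17, 5.43, 6.24 and 5.11 CPM in the CD133+ Control libraries and at 19.7, 7.35, 2.51, 13.2 and 11.1 CPM in CD133+ EIF4G2KD. Only knock-down library 3, which stands apart, was below the control range, and the log2 fold change of 0.79 (SE 0.52) had an edgeR adjusted p of 0.45. Without the 4 libraries that stand apart, a setting chosen after seeing the data, ABCB10 was called as higher at 1.04 (adjusted p = 0.024), ABCA7 was called as lower at -0.59 (adjusted p = 0.0098), and 5 ABC genes were called in CD133+ cells in place of 3. The share called over all genes in that setting is not given here, so this count of 5 has no background beside it.

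**Figure D2:**
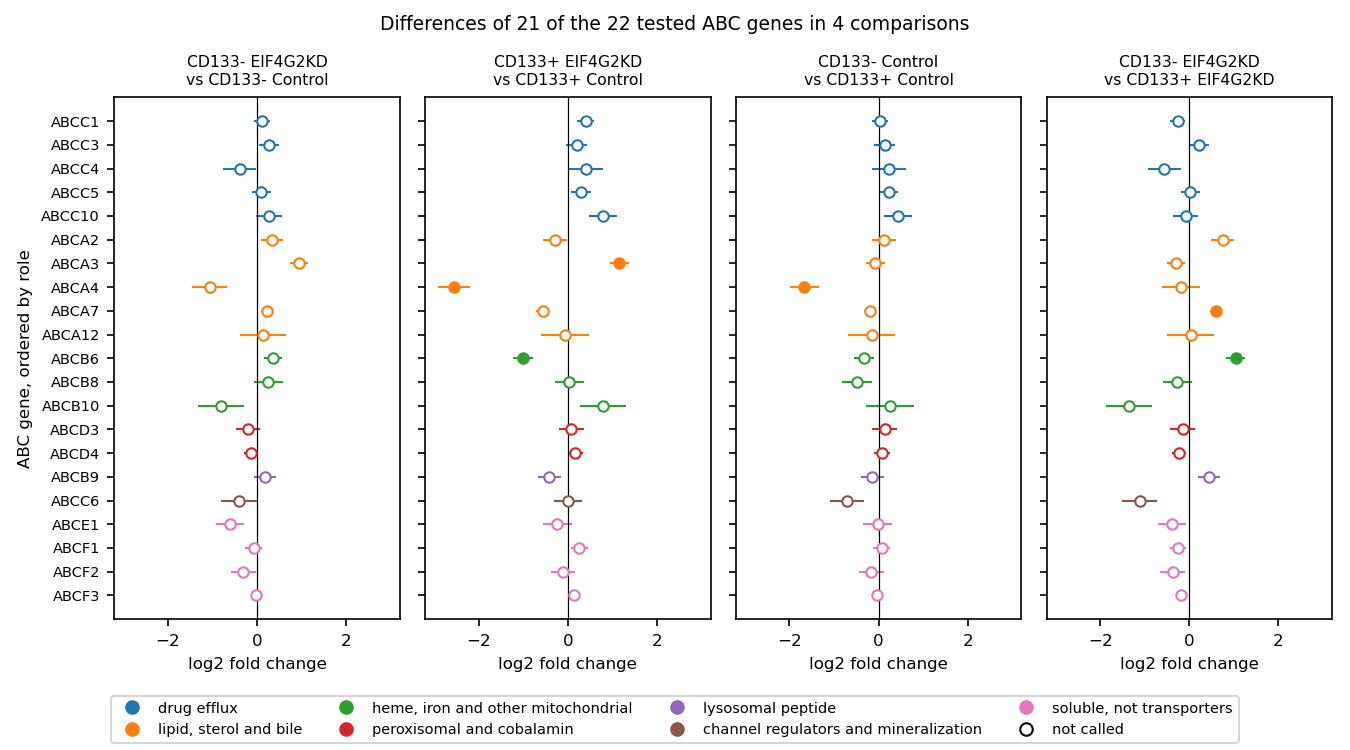
Log2 fold change (x axis) of 21 of the 22 tested ABC genes (y axis, ordered and coloured by role) in 4 comparisons of populations, with bars of 1 standard error from edgeR. Filled points were called and open points were not. The 5 drug pumps at the top lie between 0.20 and 0.78 in CD133+ EIF4G2KD vs CD133+ Control, all open.

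Of the 5 tested drug pumps edgeR called 0 in each of the 5 tests, where the share over all genes was at most 5.99%, so 0 of 5 does not set the pumps apart. Of 11 listed drug pumps 5 were in the table, and they took 41.6% of the ABC counts. In CD133+ cells all 5 had a positive log2 fold change, from 0.20 to 0.78 with a median of 0.40, and 2 had an unadjusted p below 0.05, as did 19.7% of all genes. ABCC10 (MRP7), an exporter of taxanes, was at 5.80, 6.20, 7.23 and 5.36 CPM in the CD133+ Control libraries and at 8.10, 16.7, 9.33, 6.62 and 12 CPM in CD133+ EIF4G2KD, a log2 fold change of 0.78 (SE 0.31, edgeR adjusted p = 0.14). It overlapped through knock-down library 4, and it was called with limma-voom and quality weights (0.90, adjusted p = 0.047). ABCC1 (MRP1), which exports glutathione conjugates, was at 40.6, 35.7, 32.8 and 44.6 CPM and at 36.7, 64.1, 54.5, 46.4 and 52.3 CPM in the same populations. The lowest knock-down library, number 1, lay inside the control range, and the log2 fold change was 0.40 (SE 0.18, edgeR adjusted p = 0.22). In CD133- cells ABCC1 was at 38.9, 32.5, 44.4, 33.9 and 46.5 CPM in the control and 31.7, 46.3, 35.2, 52.1 and 48.4 CPM in the knock-down, which overlapped. ABCC3 (MRP3), an exporter of bile acid and glucuronide conjugates, averaged 215 to 286 CPM by population. ABCC4 (MRP4), which exports cyclic nucleotides, averaged 5.07 to 7.78 CPM, and ABCC5 (MRP5), a related exporter, averaged 19.1 to 24.1 CPM. The adjusted p of these 3 in CD133+ cells was 0.73, 0.63 and 0.52. With the knock-down in CD133- cells 4 of the 5 pumps were positive, at a median log2 fold change of 0.11. In CD133- Control vs CD133+ Control all 5 were positive, that is higher in CD133- Control, at a median of 0.22. The pumps had 0 unadjusted p below 0.05 in both comparisons, beside 10.6% and 4.34% of all genes. The 2 comparisons in which all 5 were positive share the CD133+ Control libraries. Between the knock-down populations, which do not include those libraries, 2 were positive and 3 negative, at a median of -0.08.

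The peroxisomal and cobalamin transporters, the lysosomal peptide transporter and the ribosome-associated proteins gave no call. ABCD3, a peroxisomal importer of fatty acids, averaged 19.4 to 22.8 CPM, and ABCD4, needed for the release of vitamin B12 from lysosomes, averaged 41.1 to 48.4 CPM. With the knock-down, ABCD3 differed by 0.08 and ABCD4 by 0.17 on the log2 scale among CD133+ cells, and by -0.21 and -0.13 among CD133- cells. ABCB9, a lysosomal peptide transporter, averaged 6.80 to 9.17 CPM, and reads from the overlapping genes ARL6IP4 and OGFOD2 on the other strand are counted apart only if strand was used. ABCC6, loss of which leads to ectopic mineralization, averaged 1.86 to 4.11 CPM, and its pseudogene copies make its counts uncertain. ABCE1, which splits ribosomes for reuse, averaged 18.1 to 28.8 CPM and overlaps ANAPC10 and OTUD4 on the other strand. ABCF1, ABCF2 and ABCF3 averaged 37.1 to 44.2, 2.62 to 3.68 and 60.5 to 68.4 CPM. ABCF3, a partner of the GCN2 pathway in yeast, was the steadiest of the highly counted members, within 53.1 to 80.1 CPM in all 19 libraries.

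Between the 2 knock-down populations ABCB6 and ABCA7 were called, both higher in CD133- EIF4G2KD. These were 2 of 22 ABC genes (9.1%), where 5.86% of all genes were called and 3.49% were higher. ABCB6 had a log2 fold change of 1.04 (SE 0.22, edgeR adjusted p = 0.0049) and ABCA7 of 0.60 (SE 0.13, adjusted p = 0.0056). For each of these genes the libraries did not overlap between the populations, as held for 6.51% of all genes tested. This comparison and those above share the knock-down libraries. Without the libraries that stand apart both calls were lost, ABCB6 being at 0.93 (edgeR adjusted p = 0.088) and ABCA7 at 0.50 (adjusted p = 0.11). ABCA7 also fell below the fold limit without CD133- EIF4G2KD 4 (0.55) or 5 (0.52) or CD133+ EIF4G2KD 1 (0.57), and was 0.42 (adjusted p = 0.080) without CD133- EIF4G2KD 4 and 5. ABCA2 was at 0.75 (SE 0.25, edgeR adjusted p = 0.078), and ABCC6 at -1.11 (SE 0.39, adjusted p = 0.088). ABCB10 was at -1.35 (SE 0.51, adjusted p = 0.13), with CD133- EIF4G2KD at 8.76, 1.22, 6.43, 1.84 and 0 CPM.

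The knock-down effect itself differed between CD133+ and CD133- cells for the same 2 genes. The difference of the log2 fold changes, CD133+ minus CD133-, was -1.37 for ABCB6 (SE 0.31, edgeR adjusted p = 0.021) and -0.79 for ABCA7 (SE 0.19, adjusted p = 0.030). They made 2 of 22 ABC genes, all lower, where 1.90% of all genes were called and 1.33% were lower. The fitted log2 fold change of EIF4G2 itself was -1.48 in CD133- and -0.45 in CD133+ cells. These differed by 1.03 (SE 0.47, edgeR adjusted p = 0.34). So a response that depends on CD133 and an unequal depth of knock-down cannot be told apart here. For ABCB6 the call was lost without CD133+ Control 1 (adjusted p = 0.059), CD133+ Control 5 (0.064) or CD133+ EIF4G2KD 5 (0.050), and without CD133- EIF4G2KD 4 and 5 it was -1.20 (adjusted p = 0.075). For ABCA7 it was lost without any 1 of 9 libraries, CD133- Control 1 or 3, CD133- EIF4G2KD 4 or 5, CD133+ Control 1, 4 or 5 and CD133+ EIF4G2KD 1 or 5, with adjusted p from 0.052 to 0.077. Without all 4 libraries that stand apart neither was called, at -1.27 (adjusted p = 0.11) and -0.69 (adjusted p = 0.13).

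In CD133+ EIF4G2KD vs CD133+ Control some stretches of the genome had a median log2 fold change away from 0, so each ABC gene was set beside the tested genes within 10 Mb of it. ABCA3, ABCA4, ABCA7 and ABCB6 lay among neighbours whose median log2 fold change was 0.03, 0.01, 0.01 and 0.04 within that distance. Over the tested genes of their whole chromosomes the medians were 0.06, 0.19, -0.21 and 0.03. ABCB10, on chromosome 1, had a neighbour median of 0.51 beside its own 0.79, and ABCA2, on chromosome 9, had -0.46 beside its own -0.28. The 20 ABC genes other than these last had neighbour medians between -0.06 and 0.25. No test was made of this relation.

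**Figure D3:**
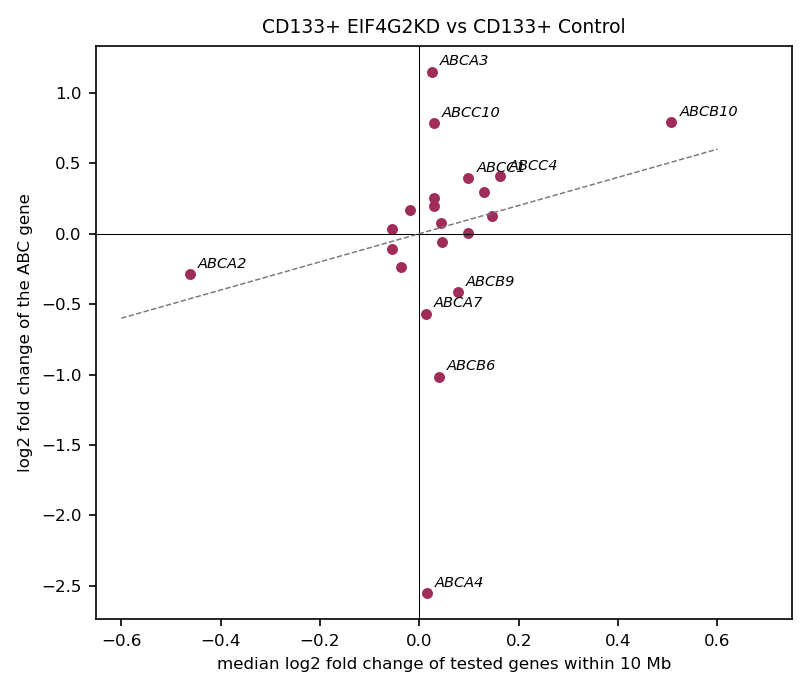
Log2 fold change of 21 of the 22 tested ABC genes in CD133+ EIF4G2KD vs CD133+ Control (y axis) against the median log2 fold change of the tested genes within 10 Mb (x axis). Each point is a gene, and the dashed line marks equal values. ABCA3, ABCA4, ABCA7 and ABCB6 sit near 0 on the x axis, while ABCB10 (0.51) and ABCA2 (-0.46) sit apart.

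In the CD133- comparison the spread among knock-down libraries was wide for some members. ABCE1 was at 32.6, 30.2, 32.5, 19.5 and 27.0 CPM in the CD133- Control libraries and at 30.6, 17.7, 22.9, 9.21 and 9.84 CPM in CD133- EIF4G2KD. ABCD3 was at 30.8, 20.7, 22.1, 8.75 and 14.6 CPM in the knock-down, and ABCC4 at 9.14, 5.49, 5.87, 2.30 and 2.57 CPM. These 3 were lowest in knock-down libraries 4 and 5, and ABCB10 in libraries 5, 2 and 4, while ABCA3, ABCA7 and ABCA2 were highest there.

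**Figure D4:**
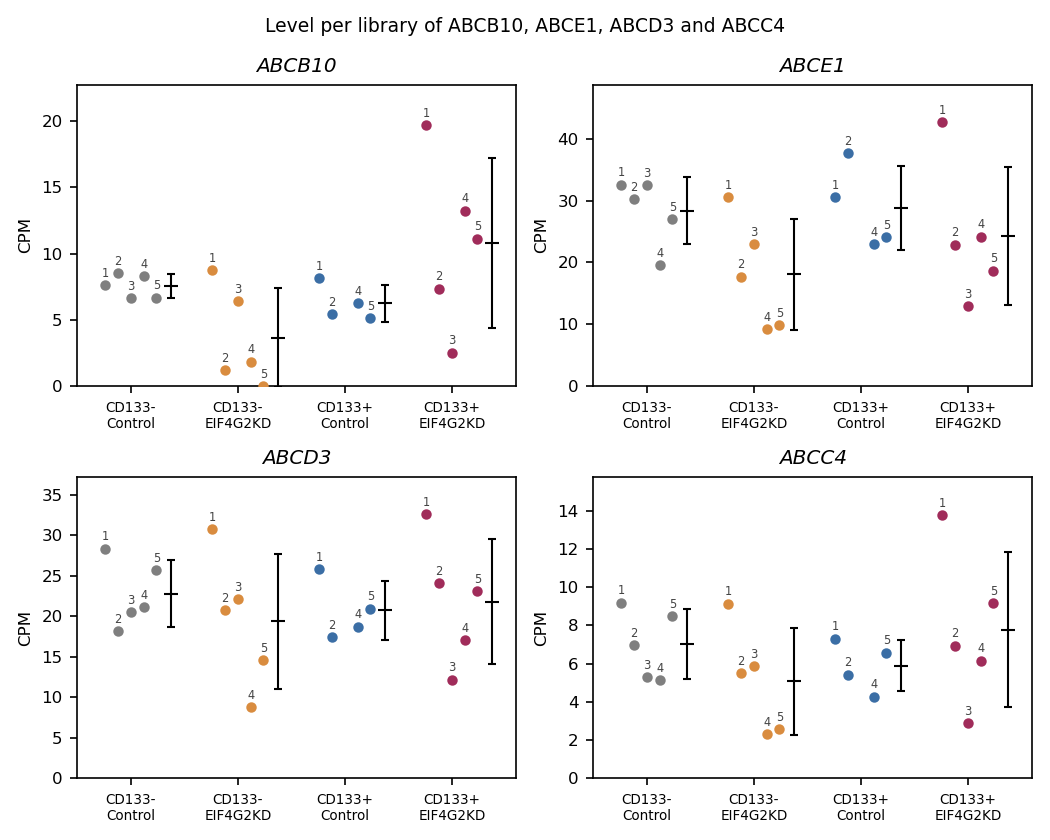
Level of ABCB10, ABCE1, ABCD3 and ABCC4 in CPM (y axis, from 0) in each library of the 4 populations (x axis), with the mean and 1 SD beside the points (n = 4 for CD133+ Control and 5 for the others). Libraries 4 and 5 of CD133- EIF4G2KD are the lowest of their population for ABCE1, ABCD3 and ABCC4, and ABCB10 is at 1.84 and 0 there.

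Those 4 genes have transcripts low in G and C: the canonical transcript held 35.5% in ABCE1, 38.5% in ABCD3, 42.6% in ABCC4 and 45.4% in ABCB10, against 60.4% in ABCA3 and 64.6% in ABCA7. ABCA12 also has a low share, 42.6%, but its log2 fold change in CD133- cells was 0.13 (edgeR adjusted p = 0.95). It had 3 to 15 counts per library. Across the 22 tested ABC genes the log2 fold change in CD133- cells ran with this share, with Pearson's r of 0.48 and Spearman's rho of 0.52. Over 10023 genes r was 0.28. These are descriptions across genes that share the same libraries and are not independent replicates. Without CD133- EIF4G2KD 4 and 5, r was 0.17 over the ABC genes and -0.01 over all genes. In CD133+ cells r was -0.04 over the ABC genes, where ABCA3, ABCA4 and ABCB6 were called. Between the controls, where ABCA4 was called, r was -0.19 over the ABC genes and -0.16 over all genes. ABCB6 and ABCA7 were called between the knock-down populations, where r was 0.29 and 0.16, and in the interaction, where it was -0.35 and -0.23. Without CD133- EIF4G2KD 4 and 5 these last were 0.01 and -0.06, and -0.15 and -0.04. The part of base composition in the differences was not tested.

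**Figure D5:**
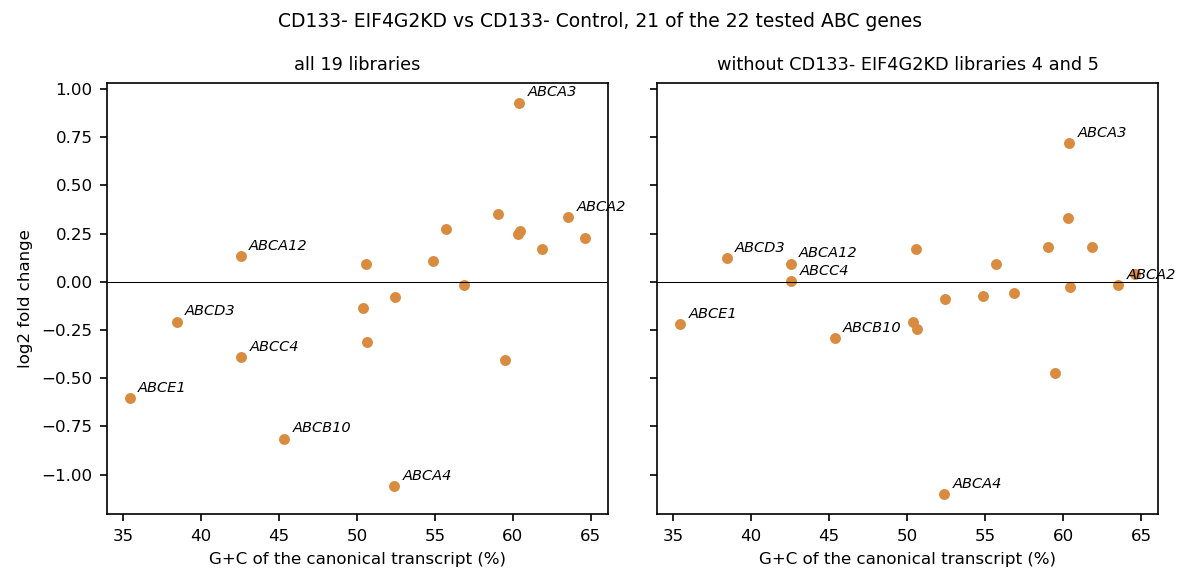
Log2 fold change in CD133- EIF4G2KD vs CD133- Control (y axis) of 21 of the 22 tested ABC genes against the share of G and C in the canonical transcript in percent (x axis), from all 19 libraries at left and without CD133- EIF4G2KD 4 and 5 at right. Each point is a gene. Pearson's r over all 22 is 0.48 at left and 0.17 at right.

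Of 98 tested genes that work beside the transporters, in 9 lists, 6 were called in CD133+ cells (6.12%), near the 5.99% over all genes. TAP2, an ABC transporter with another symbol that carries peptides for antigen presentation, was lower in CD133+ EIF4G2KD at 7.55 ± 2.95 CPM (SD, n = 5), against 17.0 ± 3.36 CPM (SD, n = 4) in CD133+ Control, a log2 fold change of -1.15 (edgeR adjusted p = 0.012). Of the 14 tested regulators of ABC transcription 2 fell and 0 rose in CD133+ cells, where 3.40% of all genes were called as lower. They were PPARG, a fatty acid receptor, at -2.59 (adjusted p = 0.0012), and NR1H2, the sterol receptor LXR beta, at -0.59 (adjusted p = 0.0077) among neighbours with a median of -0.43. PPARG was also lower in CD133- cells, at -1.98, but was not called there. Its means were 27.2 ± 15.5 CPM (SD, n = 5) in CD133- Control and 7.23 ± 3.21 CPM (SD, n = 5) in CD133- EIF4G2KD. The knock-down effects on PPARG differed by -0.61, CD133+ minus CD133-, which was not called. Of 16 heme synthesis and transport genes 1 rose, PPOX, a late enzyme of the pathway, at 0.65 (adjusted p = 0.013), with a neighbour median of 0.50. Of 11 glutathione and vault genes 1 rose, the microsomal glutathione transferase MGST3, at 0.62 (adjusted p = 0.025), with a neighbour median of 0.51. Of 12 peroxisomal genes 1 rose, EHHADH, an enzyme of fatty acid oxidation, at 1.12 (adjusted p = 0.048). None of the 10 sterol efflux and uptake genes, the 14 iron-sulfur genes, the 10 ribosome rescue genes or the 9 drug uptake and taxane target genes was called in that comparison by edgeR, with 2, 1, 3 and 1 of them at an unadjusted p below 0.05. Between the knock-down populations 4 of the 98 were called (4.08%), below the 5.86% over all genes. TAP2 (0.92), the organic anion transporter SLCO4A1 (0.88) and the acyl-CoA synthetase ACSL1 (0.76) were higher in CD133- EIF4G2KD. GCLM, a subunit of the enzyme that makes glutathione's precursor, was lower (-1.44). In CD133- cells and between the sorted controls edgeR called 0 genes of these 9 lists, with 13 and 1 of 98 tested at an unadjusted p below 0.05 (13.3% and 1.02%, beside 10.6% and 4.34% of all genes), and no other tool was run on them. The median log2 fold change of each list in CD133+ cells lay between -0.12 and 0.25, apart from the pair of ABC genes with other symbols at -0.59, beside 0.01 over all genes.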

How the data were processed

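Bulk MARS-seq of 19 HEC-1A libraries was analysed from a table in which the authors deposited raw counts per gene. According to the submitters' processing notes and the study's methods, the authors used cutadapt, STAR 2.4.2a with hg38 (mm10 is also listed), HTSeq, DESeq2 and the UTAP pipeline. A normalized signal, made by scaling each library's counts with its size factor, was deposited by the authors as well, and its mean per gene was used in the call. Log2 fold changes and p-values of the authors' comparisons are deposited too and were not used. Whether strand was used in counting is not given in the sources used here.

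Counts were tested with edgeR 4.0.16 (R 4.3.3, TMM scaling, filterByExpr with a minimum count of 10, quasi-likelihood F test, population as the only term). The p-values of the main fit were adjusted by Benjamini-Hochberg over 10338 genes, and the steps were tested on simulated data. Fits with libraries left out or without the filter were adjusted over their own set of genes, such as 10542 without CD133- EIF4G2KD 4 and 5. DESeq2 applied its own filtering before adjustment. CPM values divide each count by the library's total over the tested genes times its TMM factor. Depth was 1679447 to 5234905 counts per library, so genes with a few counts carry wide errors. The difference between knock-down effects was tested as an interaction. DESeq2 1.42.0, limma 3.58.1 (voom with quality weights), RLE scaling, other filters, a replicate block and left-out libraries were the alternatives. Positions and G and C shares came from GENCODE 44, by symbol for 12033 of 12558 genes. No 2 libraries of a population agreed within sampling noise (chi-square per degree of freedom at least 5.15 over 36 pairs).

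Named with values in every library were members with an adjusted p below 0.05 in any comparison and ABCA3, ABCA4, ABCB6 and ABCC1. ABCC10, ABCB10, ABCE1, ABCD3 and ABCC4 were added after their values were seen. Of the neighbouring pathway genes, those called were named. Values of 2 members are not reported here. Members and lists were chosen with earlier results of these data known.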

Additional observations from a re-analysis of the deposited data

Results flagged for a closer look

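Among 88 groups of 4 or 5 libraries of the tested ABC genes, 2 held a library far from the others, where chance flags about 1 in 20. In CD133+ Control, ABCA12 was at 5.82 CPM in library 2 and at 1.64 to 1.93 CPM in the others, so that the gap took 0.930 of the range. In the same population ABCF2 was at 5.16 CPM in library 1 and at 3.10 to 3.28 CPM in the others, a gap of 0.911 of the range. Both genes are counted at a few tags per library, and neither was called.

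The knock-down effect differed between CD133+ and CD133- cells for ABCB6, by -1.37 on the log2 scale (edgeR adjusted p = 0.021), and for ABCA7, by -0.79 (adjusted p = 0.030). For both genes the CD133+ libraries were lower in the knock-down and the CD133- libraries overlapped.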

How the results depend on the processing

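For 46 results and their alternatives, 1207 of 1297 values were taken as unchanged. For single genes this meant the same direction and side of the threshold, and for counts of genes an equal or similar count. Part of this agreement is built in. Asking for the adjusted p alone, or for a higher mean count, reuses the main fit. A left-out library of a population that is not compared acts only through the shared fit. In CD133- EIF4G2KD vs CD133- Control 1 ABC gene (ABCA3) was called with DESeq2 and with the replicate block in place of 0, and 0 to 1 when each library was left out in turn. In CD133+ EIF4G2KD vs CD133+ Control 5 were called in place of 3 without the 4 libraries apart on the first principal component, a setting added after seeing the data. Between the controls 0 were called in place of 1 with only those populations in the fit or a mean normalized count above 30, and 0 to 1 with 1 library left out. Between the knock-down populations 1 was called in place of 2 with limma-voom or without CD133- EIF4G2KD 4 and 5, 0 without the 4 libraries apart, and 1 to 2 with 1 library left out. For the interaction 0 were called in place of 2 without CD133- EIF4G2KD 4 and 5 or without the 4 libraries apart, and 0 to 2 with 1 library left out. Where fewer libraries entered, the cause beyond that was not tested. The shares called over all genes under these alternatives are not given here.

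Among the 8 genes followed through every alternative, the values that changed sign were all uncalled. In CD133- EIF4G2KD vs CD133- Control, without libraries 4 and 5 of the knock-down, these were ABCA2 (-0.018), ABCC1 (-0.076) and ABCC10 (-0.026), and without the 4 libraries apart ABCB10 (0.032), ABCA2 (-0.058), ABCC1 (-0.23) and ABCC10 (-0.048). Between the controls, leaving out 1 library moved ABCA2 between -0.097 and 0.28, ABCA3 between -0.18 and 0.0095 and ABCC1 between -0.039 and 0.12. Between the knock-down populations these were ABCA4 with limma-voom (0.14) and ABCC10 with 1 library left out (-0.30 to 0.12).

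Same-numbered libraries deviated together in 24 of 27 pairs at r above 0.1 (median 0.42, range -0.23 to 0.70, against a median of -0.09 for other pairs), and 12 of 19 libraries correlated best with their own number, a hint from the data and not from the design. Since r was not above 0.1 in each of the 27 pairs and the labels do not say what a number marks, the fit without the block was kept as the main one. With the replicate block ABCA3 in CD133- cells was called at 0.94 (adjusted p = 0.035) and ABCA2 between the knock-down populations at 0.70 (adjusted p = 0.032). The CD133+ count of 3 and its genes were kept under the block. Depth limits ABCA12, ABCC6 and ABCF2, among others, whose mean normalized counts are under 10.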
